A study of Mus musculus with 12 samples.

Results

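The genes described here are 10 transcripts by which the principal cell of the kidney collecting duct takes up water and sodium. They are the vasopressin receptor Avpr2, the water channels Aqp2, Aqp3 and Aqp4, the epithelial sodium channel (ENaC) subunits Scnn1a, Scnn1b and Scnn1g, the steroid enzyme Hsd11b2, the kinase Sgk1 and the sodium pump regulator Fxyd4. The rule that defines them names 10 symbols and takes the row of highest count for each. All 10 were found among the 35275 genes of the count table. RNA was sequenced from kidney tissue of 12 mice at 6 months of age, all C57BL/6J, with 4 mice (2 females and 2 males) in each of 3 groups. WT mice carried normal alleles. RC/RC mice carried a hypomorphic Pkd1 allele on both chromosomes, so that Pkd1 function was reduced and not absent, and they develop slowly progressive cystic disease. RC/RC:Casp1KO mice carried the same Pkd1 alleles and, in all tissues, 1 small deletion in Casp1 on both chromosomes, propagated as a single line. The comparison of RC/RC with WT asks how the cystic kidney differs, and that of RC/RC:Casp1KO with RC/RC asks what differs when Casp1 is also disrupted. Because whole tissue was used, fewer cells of a type and less RNA per cell cannot be told apart in any result below.

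Principal cells respond to vasopressin through Avpr2, which raises cyclic AMP (cAMP). This moves Aqp2 to the luminal membrane and, over hours to days, raises Aqp2 transcription, and water leaves the cell across the other side through Aqp3 and Aqp4. Aldosterone acts in the same cell through the mineralocorticoid receptor. Hsd11b2 inactivates corticosterone and so keeps that receptor for aldosterone, and Sgk1, a transcript that steroids and cell stress change quickly in many cell types, prolongs the stay of ENaC at the luminal membrane. In polycystic kidney disease cAMP is known to drive growth of cysts, many of which arise from collecting ducts, and blockade of the vasopressin receptor is used as a treatment.

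Upstream sequence is shown for Aqp2, the most abundant of the 10 genes, and for Sgk1, whose level passed the test between RC/RC and WT, since the hormones named above act on these genes through DNA motifs. The sequences are from RefSeq on GRCm38.p6, the build that corresponds to the mm10 coordinates of the count table. RefSeq windows of 300 bases, 250 before to 50 after a start site, were given for 7 of the 10 genes (12 windows in all, 6 of them for Sgk1). The cAMP response element was searched on both strands as its full letters TGACGTCA and as the shorter TGACG that lies within them. A steroid receptor site was searched as AGAACA, that of GATA factors as AGATAA, the core of an NFAT5 element as TGGAAA and that of AP-2 factors as GCCNNNGGC. Capitals mark the matches in the 250 bases before the start site.
Aqp2 (chr15:99578806-99579055, plus strand): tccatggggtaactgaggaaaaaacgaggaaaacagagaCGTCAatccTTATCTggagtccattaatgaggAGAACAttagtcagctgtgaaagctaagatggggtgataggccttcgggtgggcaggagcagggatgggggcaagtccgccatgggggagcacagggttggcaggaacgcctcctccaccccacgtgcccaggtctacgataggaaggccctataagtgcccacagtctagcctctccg
Sgk1 (chr10:21993640-21993889, plus strand): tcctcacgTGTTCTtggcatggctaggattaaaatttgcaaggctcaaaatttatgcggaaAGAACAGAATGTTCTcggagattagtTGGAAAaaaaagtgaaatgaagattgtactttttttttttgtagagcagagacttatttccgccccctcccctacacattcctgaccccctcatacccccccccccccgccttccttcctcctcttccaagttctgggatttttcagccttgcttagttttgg

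The Aqp2 sequence held TGACG on the minus strand at -211 from the start site, AGATAA on the minus strand at -202 and AGAACA at -179. Of 32851 RefSeq windows of this length, 20.8% held TGACG, 11.2% AGATAA and 19.0% AGAACA, while the full element TGACGTCA was in 1.79% and in none of the 12 windows here. GCCNNNGGC was in 16.6% of all windows. The Sgk1 sequence, which belongs to 1 of its 6 start sites, held AGAACA 3 times. A pair of these face each other in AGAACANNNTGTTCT at -189, a palindrome that contains those matches and was searched for after the sequence had been seen. That palindrome was in 3 of the 32851 windows (0.00913%). TGGAAA, present in 21.4% of windows, was also in the Sgk1 sequence. The other 5 Sgk1 windows held from 1 to 2 matches each. The Avpr2 window held AGAACA 2 times, and that of Fxyd4 held GCCNNNGGC at -53. No motif matched in the windows of Scnn1b, Scnn1g and Aqp3, which says only that these letters are not in those 300 bases, and a match is not evidence of binding. Scnn1a, Hsd11b2 and Aqp4 had no window.

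Between 18019819 and 24869454 reads per mouse were assigned to genes, and mitochondrial genes held between 7.78% and 12.1% of them. Levels are given as CPM, the reads of a gene scaled to a common library size after TMM normalization of the 12 libraries. Levels of different genes are compared only per transcript length, as FPKM. Mice of a group were not equally alike. In WT, the chi-square per degree of freedom between the counts of 2 mice was 17.7 for B6_2 and B6_3 and 16.4 for B6_4 and B6_6, but 89.8 to 127.3 for the 4 pairs across these. The RC/RC:Casp1KO mice showed the same 2 by 2 structure, at 15.7 for Del3_60 and Del3_105 and 31.8 for Del3_42 and Del3_70 against 67.1 to 93.4 across them, and in RC/RC only RC140 and RC143 stood close (37.2, beside 67.6 to 127.7 for the other pairs). Each group holds both sexes, but the columns do not name the sex of a mouse, and its part in these pairs was not tested. Casp1, the disrupted gene, was at 1.51 ± 0.366 CPM (mean ± SD, n = 4) in WT, 3.52 ± 0.703 in RC/RC and 0.69 ± 0.271 in RC/RC:Casp1KO kidneys. Its difference between RC/RC:Casp1KO and RC/RC was -2.35 on the log2 scale (SE 0.324, adjusted p = 0.00514, edgeR), and the groups did not overlap. Against WT it was -1.12 (SE 0.345, adjusted p = 0.128). Reads are counted over the whole gene, and most of the gene lies outside the deletion. Pkd1, whose RC allele is still transcribed, was at 52.9 ± 13.4 CPM in WT and 55.3 ± 9.7 in RC/RC kidneys (adjusted p = 0.878).

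The 9 genes other than Avpr2 were readily detected in every mouse, with at least 378 reads in each. In WT kidneys Aqp2 stood first at 194 ± 77.3 FPKM. It was followed by Hsd11b2 (93.0 ± 33.9), Sgk1 (70.2 ± 17.8), Aqp3 (66.7 ± 12.7) and Scnn1a (45.1 ± 13.0). Below these came Fxyd4 (25.7 ± 11.8), Scnn1b (25 ± 5.02), Aqp4 (15.3 ± 8.38) and Scnn1g (13.6 ± 3.49). The ranges of neighbours in this order overlapped over mice, except that Scnn1g stood clear of Avpr2. Within a mouse, Aqp2 exceeded Hsd11b2, Hsd11b2 exceeded Sgk1, Aqp3 exceeded Scnn1a and Scnn1b exceeded Aqp4 in 4 of 4 WT mice, while the other neighbours among the detected genes changed places in 1 to 3 mice. In RC/RC kidneys Aqp2 (427 ± 138), Hsd11b2 (167 ± 24.3) and Aqp3 (95.5 ± 6.97 FPKM) each stood above the next gene without overlap, and Sgk1, at 32.2 ± 6.0 FPKM, came after Fxyd4 and Scnn1a. RC/RC:Casp1KO kidneys began with the same 3 genes, at 289 ± 51.8, 133 ± 27.1 and 102 ± 2.95 FPKM, followed by Scnn1a at 44.8 ± 16.8 and Sgk1 at 38.8 ± 33.4 FPKM. The level of Aqp2 exceeded that of Hsd11b2 in all 12 mice.

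Avpr2 (chrX:73892102-73895502, plus strand) was close to absent from the counts. The 4 WT mice had 1, 1, 1 and 5 reads, the RC/RC mice 0, 1, 2 and 3, and the RC/RC:Casp1KO mice 2, 5, 7 and 7. These sum to 8, 6 and 21 reads in the 3 groups, and the gene did not pass the filter on low counts. In edgeR on all genes with at least 1 count, its log2 fold change was -0.46 (SE 0.964, adjusted p = 0.799) in RC/RC against WT, 1.72 (SE 0.762, adjusted p = 0.196) in RC/RC:Casp1KO against RC/RC and 1.26 (SE 0.731, adjusted p = 0.411) in RC/RC:Casp1KO against WT. Its whole span of 3401 bases is overlapped on the other strand by L1cam (756 to 1954 reads per mouse) and Arhgap4 (76 to 240 reads), and in the GENCODE vM39 annotation 81.3% of its exon bases lie in exons of Arhgap4. Whether counting used strand, or how reads shared by 2 genes were treated, is not given in the sources used here, so the level of Avpr2 is uncertain. No other member shares its span with another gene of the table, although in vM39 16.6% of the exon bases of Aqp2, 14.4% of Sgk1 and 7.16% of Scnn1a lie in exons of predicted genes.

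**Figure D1:**
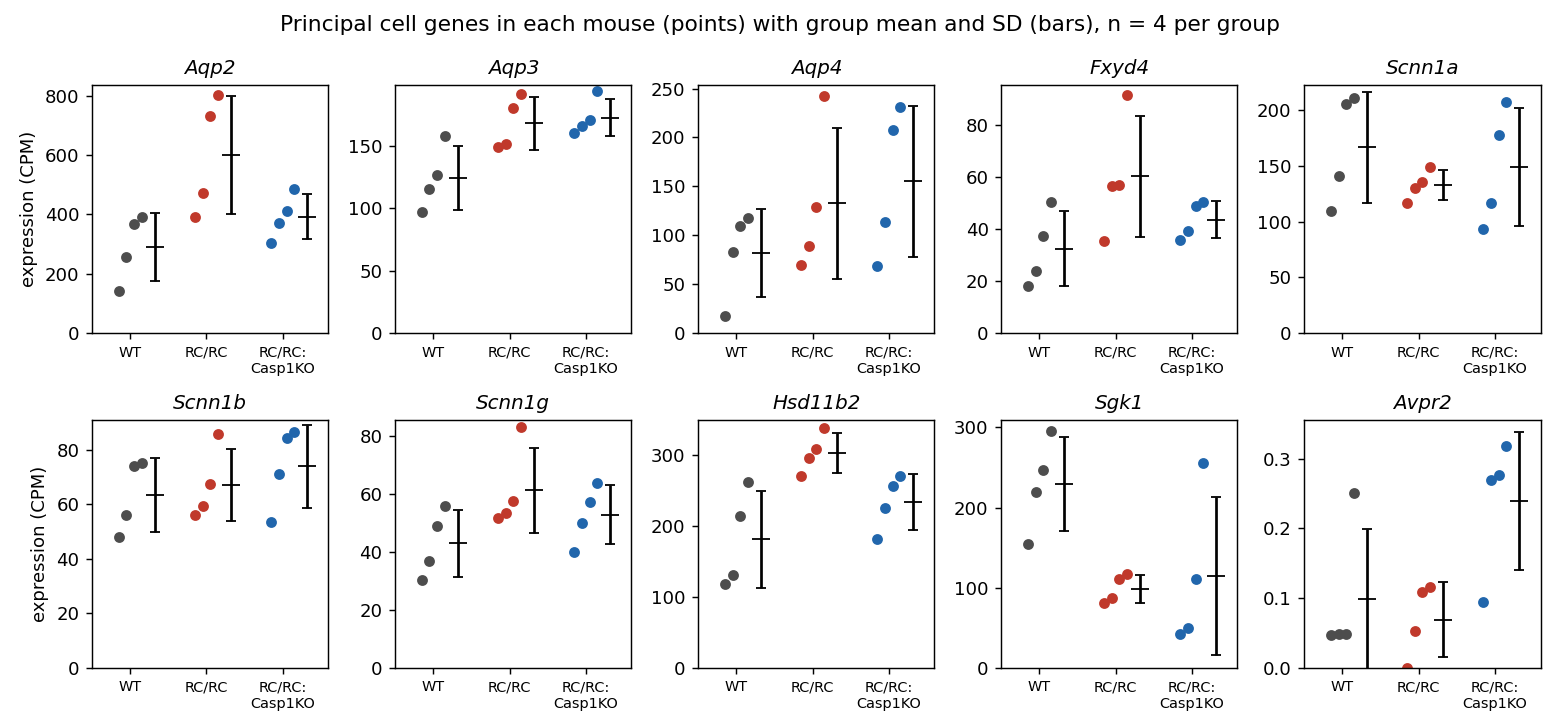
Level of each of the 10 genes (CPM, vertical axes from 0, a separate scale for each gene) in the 4 mice of each group (points, in order of level), with the group mean and SD beside them. RC/RC mice lie above WT mice for Aqp2 and Hsd11b2 and below them for Sgk1, without overlap, and 1 RC/RC:Casp1KO mouse stands at 255 CPM of Sgk1.

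Among the water channels, Aqp2 (chr15:99579056-99584545), the vasopressin-regulated channel of the luminal membrane, was at 143, 255, 369 and 390.0 CPM in the WT mice. The RC/RC mice had 391, 474, 733 and 804 CPM, each above the highest WT mouse, although the nearest pair (391 and 390.0) were almost equal. Those of RC/RC:Casp1KO mice were 303, 373, 410.3 and 484 CPM, which overlapped both other groups. The log2 fold change was 1.05 (SE 0.339, adjusted p = 0.0739, edgeR) in RC/RC against WT, a 2.07-fold higher level that did not pass the threshold of 0.05. The difference of RC/RC:Casp1KO from RC/RC was -0.62 (SE 0.253, adjusted p = 0.13), and that from WT 0.45 (SE 0.29, adjusted p = 0.388). The call in RC/RC against WT depended on the test: DESeq2 gave an adjusted p of 0.0134, and edgeR with a dispersion shared by all 12 mice gave 0.0368. Only these 2 of 7 alternative fits passed, and adjusted p in the others reached 0.0759. With 1 mouse left out, 0 of 8 fits passed (adjusted p from 0.0563 to 0.186, edgeR). Without 1 RC/RC mouse, RC105, the difference between RC/RC:Casp1KO and RC/RC was -0.79 with an adjusted p of 0.0428. RC105 had the lowest Aqp2 level of the RC/RC mice (391 CPM), so leaving it out widens this difference. It was the only 1 of 8 such fits to pass: adjusted p reached 0.315, and the smallest difference was -0.45. Of 7 alternative fits, 0 passed.

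Aqp3 (chr4:41092722-41098183), a channel of the basolateral membrane that also passes glycerol, had the narrowest spread of the 10 genes in RC/RC:Casp1KO kidneys. It was at 97.2, 115, 127 and 158 CPM in WT, 149, 151, 180.1 and 192 in RC/RC, and 160.1, 165, 171 and 194 in RC/RC:Casp1KO mice. All RC/RC:Casp1KO mice were above all WT mice, and the highest WT mouse lay above 2 of the RC/RC mice. Its log2 fold change was 0.43 (SE 0.162, adjusted p = 0.115) in RC/RC and 0.48 (SE 0.144, adjusted p = 0.122) in RC/RC:Casp1KO, each against WT, and 0.04 (SE 0.13, adjusted p = 0.875) between those groups. Aqp4 (chr18:15389394-15403684), the other basolateral channel, had the widest spread of the 9 detected genes in WT and RC/RC mice. It ranged from 17.7 to 117 CPM in WT, from 69.2 to 243 in RC/RC and from 68.3 to 231 in RC/RC:Casp1KO mice. Its log2 fold change of 0.69 in RC/RC against WT had an SE of 0.543 (adjusted p = 0.423).

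Fxyd4 (chr6:117933729-117937335), a small membrane protein that adjusts the sodium pump in the collecting duct, was at 32.4 ± 14.5 CPM in WT, 60.2 ± 23.3 in RC/RC and 43.6 ± 7.04 in RC/RC:Casp1KO kidneys. The RC/RC values of 35.5, 56.5, 57.1 and 91.7 CPM overlapped the WT values of 18.1, 23.7, 37.3 and 50.4. The log2 fold change was 0.89 (SE 0.351, adjusted p = 0.131) in RC/RC against WT and -0.46 (SE 0.249, adjusted p = 0.234) in RC/RC:Casp1KO against RC/RC. Relative to Aqp2 within each mouse, the FPKM of Fxyd4 was 0.133 ± 0.0215 in WT, 0.121 ± 0.0389 in RC/RC and 0.134 ± 0.0268 in RC/RC:Casp1KO kidneys, a ratio for which no difference was detected (exact permutation p = 0.543 for RC/RC against WT, n = 4 against 4).

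No ENaC subunit passed the test in any comparison. Within a mouse, the proportions of 2 of 3 pairs of subunits did not overlap between RC/RC and WT, which did not pass after correction. How often ratios of other gene pairs separate these groups was not computed, and 19.3% of single genes did not overlap. Scnn1a (chr6:125320659-125344943), the alpha subunit that aldosterone raises in this segment, was at 109, 141, 206 and 211 CPM in WT, 117, 130.2, 135 and 149 in RC/RC, and 93.2, 117, 178 and 208 in RC/RC:Casp1KO mice. Its log2 fold change in RC/RC against WT was -0.33 (SE 0.203, adjusted p = 0.307). The beta subunit Scnn1b (chr7:121865111-121918515) was at 63.4 ± 13.4, 67.2 ± 13.3 and 74.0 ± 15.1 CPM in the 3 groups (log2 fold change 0.08 in RC/RC against WT, SE 0.176, adjusted p = 0.804). The gamma subunit Scnn1g (chr7:121734479-121768475), which lies 96.6 kb from Scnn1b on the same strand, was at 30.1, 36.7, 48.9 and 55.9 CPM in WT and 51.5, 53.2, 57.4 and 82.9 in RC/RC mice. It was at 40.0, 49.9, 57.1 and 63.8 CPM in RC/RC:Casp1KO mice. Its log2 fold change was 0.51 (SE 0.212, adjusted p = 0.148) in RC/RC against WT and -0.21 (SE 0.181, adjusted p = 0.448) in RC/RC:Casp1KO against RC/RC. Of the RC/RC values of Scnn1g, 2 lay in the upper part of the WT range and 2 above it.

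Ratios of FPKM within a mouse do not depend on the scaling between libraries. The ratio of Scnn1b to Scnn1g was 1.68, 1.88, 1.90 and 1.99 in the WT mice, 1.29, 1.31, 1.43 and 1.46 in the RC/RC mice, and 1.66, 1.68, 1.77 and 1.84 in the RC/RC:Casp1KO mice. Every RC/RC mouse was below every mouse of the other groups (exact two-sided permutation p = 0.0286 against each, n = 4 against 4, the smallest p the design allows). On the log2 scale RC/RC was lower than WT by 0.44 (-0.44, SE 0.0697), and RC/RC:Casp1KO was higher than RC/RC by 0.34 (SE 0.0567). RC/RC:Casp1KO and WT overlapped, with a difference of -0.10 (SE 0.0621, exact permutation p = 0.171). The ratio of Scnn1g to Scnn1a was 0.304 ± 0.0184 in WT, 0.535 ± 0.0813 in RC/RC and 0.436 ± 0.0855 in RC/RC:Casp1KO mice. All RC/RC mice were above all WT mice by this ratio (log2 difference 0.81, SE 0.114, exact permutation p = 0.0286), and 1 RC/RC:Casp1KO mouse was at 0.322, level with the highest WT mouse. For Scnn1b to Scnn1a the means were 0.565 ± 0.0568, 0.732 ± 0.0968 and 0.755 ± 0.134, and WT overlapped both other groups. In all, 21 differences were tested for 7 ratios, and the adjusted p of each of those without overlap was 0.15, so none passed after correction. With 0.0286 as the smallest p, any could pass only if most of the 21 reached it, so this failure says little. The same holds for the 27 values relative to transcription factors below.

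**Figure D2:**
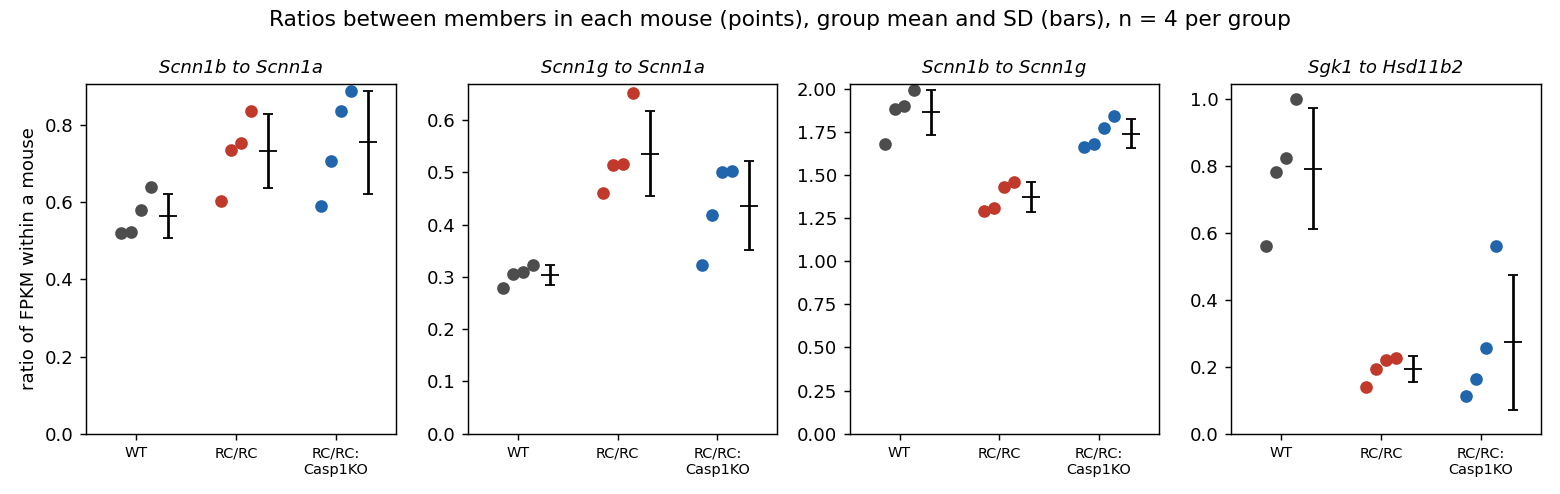
Ratio of FPKM between pairs of genes within each mouse (vertical axes from 0), with 4 points per group and the group mean and SD beside them. The Scnn1b to Scnn1g ratio lies between 1.29 and 1.46 in RC/RC mice and between 1.66 and 1.99 in the mice of the other groups, and the Sgk1 to Hsd11b2 ratio of RC/RC mice lies at or below 0.225 while that of WT mice lies at or above 0.56.

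Hsd11b2 and Sgk1, both tied to the aldosterone response, had fold changes of opposite sign in RC/RC kidneys, of which only that of Sgk1 passed the test. Hsd11b2 (chr8:105518746-105523984) was at 118, 131, 214 and 263 CPM in WT mice and at 271, 297, 309 and 339 CPM in RC/RC mice, without overlap. The RC/RC:Casp1KO mice, at 182, 226, 257 and 271 CPM, lay across the upper part of the WT range and met the lowest RC/RC mouse. The log2 fold change was 0.74 (SE 0.242, adjusted p = 0.0762) in RC/RC against WT and -0.38 (SE 0.145, adjusted p = 0.113) in RC/RC:Casp1KO against RC/RC. The first of these passed under DESeq2 (adjusted p = 0.0264), under the shared dispersion (adjusted p = 0.0435), under limma on FPKM (adjusted p = 0.0441) and in edgeR without the WT mouse B6_3 (adjusted p = 0.0304). These were 3 of 7 alternative fits, with adjusted p up to 0.0798 in the others. They also include the only 1 of 8 fits with a mouse left out to pass, where adjusted p reached 0.19.

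Sgk1 (chr10:21882184-21999903) was the one member that passed the test. It was at 155, 219, 247 and 296 CPM in WT mice and at 80.5, 87.3, 110.3 and 117 CPM in RC/RC mice, so that every RC/RC mouse was below every WT mouse. The log2 fold change was -1.22 (SE 0.207, adjusted p = 0.00569, edgeR), a level 0.43 times that of WT. The RC/RC:Casp1KO mice were at 42.5, 49.9, 110.2 and 255 CPM, values that reach from below all RC/RC mice to within the WT range, and neither difference of this group passed the test. They were 0.21 (SE 0.498, adjusted p = 0.805) against RC/RC and -1.0 (SE 0.52, adjusted p = 0.292) against WT. The mouse at 255 CPM, Del3_60, decided the sign of the first: without it the log2 fold change was -0.54 against RC/RC (adjusted p = 0.317) and -1.75 against WT (adjusted p = 0.0773). That mouse also had the highest level of Aqp2 (484 CPM), Aqp4 (231 CPM), Scnn1a (208 CPM) and Hsd11b2 (271 CPM) in its group. The fall in RC/RC against WT passed with each of the 8 mice left out in turn, with adjusted p from 0.00321 to 0.0184. It did not pass with a dispersion shared by all 12 mice (adjusted p = 0.0867), a fit that includes the spread of the RC/RC:Casp1KO mice. The ratio of Sgk1 to Hsd11b2 was 0.791 ± 0.181 in WT, 0.195 ± 0.0387 in RC/RC and 0.273 ± 0.201 in RC/RC:Casp1KO mice, with no overlap between RC/RC and WT (log2 difference -2.01, SE 0.233, exact permutation p = 0.0286, adjusted p = 0.15).

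As a group, 1 of the 9 members tested was called in RC/RC against WT (Sgk1, lower), or 11.1%, beside 12.9% of all 15243 genes tested, of which 9.76% were higher and 3.18% lower. The members' log2 fold changes were positive for 7 and negative for 2, with a median of 0.508 beside -0.0203 for all genes. At an unadjusted p under 0.05 there were 5 higher (Aqp2, Aqp3, Fxyd4, Scnn1g and Hsd11b2) and 1 lower, beside 29.2% of all genes in either direction and 17.3% higher. The groups did not overlap for 3 members (Aqp2 and Hsd11b2 higher, Sgk1 lower), beside 19.3% of all genes, 12.7% higher and 6.58% lower. Between RC/RC:Casp1KO and RC/RC, edgeR called none of the 9 members, beside 11.6% of 15428 genes (7.23% higher and 4.41% lower), and DESeq2 and limma also called none. At an unadjusted p under 0.05, 2 members were lower (Aqp2 and Hsd11b2), beside 31.7% of all genes in either direction and 16.4% lower. The groups overlapped for every member, beside 20.5% of genes without overlap, and the median log2 fold change was 0.0361 beside -0.0267. Against WT, no member was called in RC/RC:Casp1KO by edgeR or DESeq2 and 1 by limma (Aqp3), beside 2.03% of 15346 genes called by edgeR, 1.13% higher and 0.893% lower. Aqp3 was the only member at an unadjusted p under 0.05, beside 21.8% of genes and 11.8% higher, and the only one without overlap, beside 13.7% of genes and 7.47% higher. The median there was 0.377 beside 0.0118. The 3 comparisons share groups, so their counts are not independent. Genes called higher made up 75.4%, 62.1% and 55.9% of all calls in the 3 comparisons, and 86.1%, 82% and 79.8% when libraries were scaled by their totals alone.

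**Figure D3:**
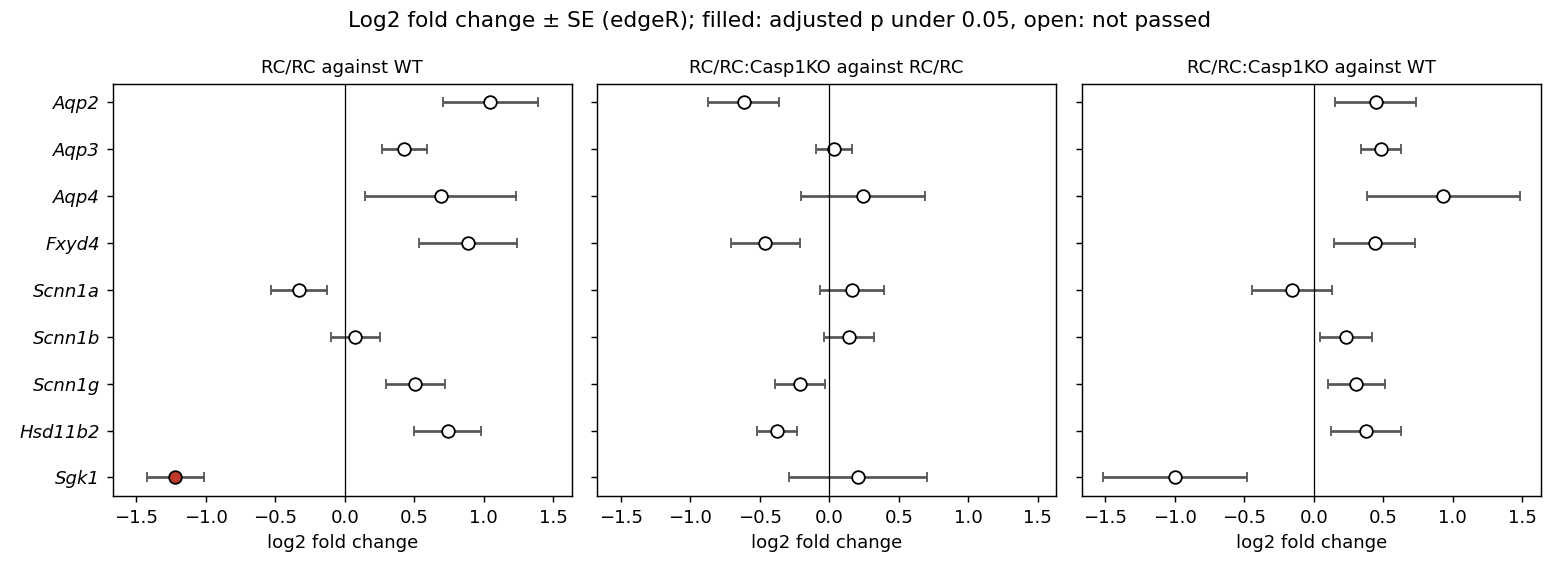
Log2 fold change of the 9 members that passed the filter on low counts (points) with its SE (bars) in the 3 comparisons, edgeR. Only Sgk1 in RC/RC against WT, at -1.22, has an adjusted p under 0.05 (filled).

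To set the members beside genes of the same tubule, each was expressed relative to transcription factors of the collecting duct. The reference was the geometric mean CPM of Gata3, Tfcp2l1, Grhl2, Hoxb7 and Tfap2b. These did not move together in RC/RC against WT. Gata3 (0.43), Grhl2 (0.52) and Hoxb7 (0.20) had positive log2 fold changes. Those of Tfcp2l1 (-0.53, without overlap) and Tfap2b (-0.49) were negative, and none passed the test. Elf3 and Lhx1, which moved further, were not among them. On this scale Hsd11b2 was higher in RC/RC than in WT by 0.81 (SE 0.235) and Sgk1 was lower (-1.21, SE 0.272), both on the log2 scale and without overlap (exact permutation p = 0.0286, adjusted p = 0.21 over 27 values). Hsd11b2 was also lower in RC/RC:Casp1KO than in RC/RC (-0.45, SE 0.0616, exact permutation p = 0.0286, adjusted p = 0.21). Without overlap were thus 2, 1 and 0 of the 9 members in the 3 comparisons, beside 15%, 11.6% and 7.03% of all genes tested on this scale. Aqp2 was higher by 1.08 (SE 0.42) in RC/RC against WT, with overlap (exact permutation p = 0.0857).

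Other genes of the collecting duct moved in both directions. Counts called in the lists from here on stand beside 12.9%, 11.6% and 2.03% of all genes tested in the 3 comparisons. Of 14 transcription factors, RC/RC kidneys had 1 higher, Elf3 (log2 fold change 1.07, SE 0.21, adjusted p = 0.0106), and 2 lower, Lhx1 (-1.05, SE 0.177, adjusted p = 0.00558) and Emx1 (-0.54, adjusted p = 0.0412), than WT, with a list median of -0.0695. Lhx1, a factor of the embryonic tubule, was at 34.6 ± 4.81, 16.8 ± 4.01 and 30.7 ± 4.54 CPM in the 3 groups and was higher in RC/RC:Casp1KO than in RC/RC (0.87, SE 0.179, adjusted p = 0.021). Elf3, an epithelial factor, was lower there (-0.75, adjusted p = 0.0334). The most abundant factor per length in WT, Hoxd8, was at -0.43 in RC/RC (adjusted p = 0.168). Of 19 other duct epithelial genes, 4 were higher in RC/RC than in WT: the keratins Krt8 (0.77, adjusted p = 0.00549) and Krt18 (1.27, adjusted p = 0.0336), the tight junction gene Cldn4 (1.15, adjusted p = 0.0103) and Stc1 (1.49, adjusted p = 0.00297). The calcium-binding protein of the distal and connecting tubule, Calb1, was lower (-2.17, SE 0.345, adjusted p = 0.00415). Krt19 (-1.29, adjusted p = 0.0377), Cldn4 (-1.08, adjusted p = 0.0297) and Krt8 (-0.43, adjusted p = 0.0338) were lower in RC/RC:Casp1KO than in RC/RC. Calb1, by contrast, was below WT in RC/RC:Casp1KO too (-1.73, adjusted p = 0.0449). Cdh16, the most abundant gene of that list, was at -0.15 in RC/RC against WT (adjusted p = 0.54). That list had a median of 0.291 in RC/RC against WT, with 11 positive and 8 negative values.

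Of 22 genes of vasopressin and cAMP signalling, 2 were called in RC/RC against WT, both higher, beside 12.9% of all genes (9.76% higher). They were Ptger4, a prostaglandin receptor that raises cAMP (1.5, SE 0.225, adjusted p = 0.00315), and the receptor adaptor Arrb2 (0.67, SE 0.129, adjusted p = 0.00985). Ptger4 was at 4.20 ± 0.677 CPM in WT, 12 ± 3.28 in RC/RC and 6.71 ± 0.872 in RC/RC:Casp1KO kidneys, lower in the last than in RC/RC (-0.84, adjusted p = 0.0356). The list's median was 0.0303, and its most abundant gene, the protein kinase A subunit Prkar1a, was at 0.05 (adjusted p = 0.807). Of 16 genes linked to movement of Aqp2 to the membrane, Anxa2 was higher (1.32, adjusted p = 0.016) and the vesicle protein Vamp2 lower (-0.47, adjusted p = 0.0343) in RC/RC, and both differed the other way in RC/RC:Casp1KO against RC/RC (Anxa2 -1.03, adjusted p = 0.0413, and Vamp2 0.68, adjusted p = 0.0103). Hspa8, the most abundant of these, was at 0.22 (adjusted p = 0.624). None of the 5 other aquaporins tested passed in RC/RC against WT by edgeR, none by DESeq2 and none at an unadjusted p under 0.05, and the most abundant of them, Aqp1 of the proximal tubule, was at 0.09 (adjusted p = 0.753). Aqp7 was higher in RC/RC:Casp1KO than in RC/RC (0.40, adjusted p = 0.0459).

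Of 21 genes of mineralocorticoid action and ENaC control, 3 were called in RC/RC against WT, all lower, beside 12.9% of all genes (3.18% lower). The list's median was -0.161. The 3 called are given first. They were Errfi1, a steroid- and stress-responsive inhibitor of the epidermal growth factor receptor (-1.14, SE 0.263, adjusted p = 0.0209), the kinase Wnk1 (-0.80, SE 0.206, adjusted p = 0.0336) and the protease Tmprss2 (-0.57, SE 0.151, adjusted p = 0.0371). Errfi1 was at 714 ± 114 CPM in WT, 326 ± 119 in RC/RC and 283 ± 76.7 in RC/RC:Casp1KO kidneys, and it was lower than WT in the last group too (-1.33, SE 0.197, adjusted p = 0.0144). The mineralocorticoid receptor Nr3c2 was at 24.7 ± 4.64, 22.2 ± 4.7 and 24.8 ± 4.22 CPM (adjusted p = 0.557 in RC/RC against WT), and the ubiquitin ligase Nedd4l, which removes ENaC from the membrane, was at -0.17 (adjusted p = 0.448). The list holds other genes that steroids are known to induce. Of these, Per1 was at 105.2 ± 14.2 CPM in WT, 58.5 ± 21.9 in RC/RC and 69.5 ± 35.7 in RC/RC:Casp1KO kidneys (-0.85 in RC/RC against WT, SE 0.247, adjusted p = 0.0518, without overlap). Fkbp5 was at 137 ± 35.1, 88.8 ± 63.9 and 47.8 ± 23.7 CPM (-0.63 in RC/RC against WT, adjusted p = 0.375, and -1.51 in RC/RC:Casp1KO against WT, adjusted p = 0.0578, the latter without overlap). Tsc22d3 was at 91.8 ± 14.3, 85.0 ± 28.4 and 60.2 ± 23.8 CPM (-0.11 in RC/RC against WT, adjusted p = 0.797). Usp2 was at -0.60 (adjusted p = 0.0613) and Zbtb16 at 0.08 (adjusted p = 0.928) in RC/RC against WT. Rictor, part of the complex that activates Sgk1, was higher in RC/RC:Casp1KO than in RC/RC (0.66, adjusted p = 0.0278).

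Among 10 tested genes of potassium channels and the sodium pump, Fxyd5 (1.39, adjusted p = 0.00255) and Fxyd1 (1.47, adjusted p = 0.0489), which belong to the family of Fxyd4, were higher in RC/RC than in WT. Fxyd5 and Fxyd6 were lower in RC/RC:Casp1KO than in RC/RC (-1.03, adjusted p = 0.0492, and -1.05, adjusted p = 0.0353). The potassium channels Kcnj1 and Kcnj10 had values of -0.45 (adjusted p = 0.337) and -0.81 (adjusted p = 0.0644) in RC/RC against WT, and Fxyd2, the most abundant gene of the list, 0.01 (adjusted p = 0.982). Of 12 genes of osmotic response and urea transport, edgeR called none in RC/RC against WT, DESeq2 called 3 and 6 had an unadjusted p under 0.05, with a median of 0.123. When RC/RC:Casp1KO was set against RC/RC, the osmotic regulator Nfat5 (0.86, SE 0.173, adjusted p = 0.0191) and Pnpla6 (0.54, adjusted p = 0.0175) were higher and the chaperone Hspa4l lower (-0.38, adjusted p = 0.0298), and Hspa4l was also below WT (-0.69, adjusted p = 0.00656). Slc6a6, the most abundant, was at -0.37 in RC/RC against WT (adjusted p = 0.224).

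The markers of other tubule segments that passed the test in RC/RC against WT were all lower, as was Sgk1, the member that passed. Of 5 markers of the distal convoluted tubule, 4 were lower, among them the thiazide-sensitive cotransporter Slc12a3 (-2.03, SE 0.327, adjusted p = 0.00444), at 978 ± 151 CPM in WT, 241 ± 119 in RC/RC and 653 ± 252 in RC/RC:Casp1KO kidneys. Pvalb (-1.40), Kl (-0.90) and Wnk4 (-0.64) were the other 3, and the 5 markers had a median of -0.904. Of 11 markers of intercalated cells, which lie beside principal cells in the same duct, 10 had negative values and 2 passed, Insrr (-1.03, adjusted p = 0.00805) and Slc4a9 (-0.96, adjusted p = 0.0187), with a median of -0.617. Their most abundant gene, the proton pump subunit Atp6v0a4, was at -0.67 (adjusted p = 0.0694). The thick ascending limb had 1 of 6 lower (Egf, -1.27, adjusted p = 0.0445; Umod at -0.48 did not pass). The proximal tubule had 2 of 8 lower (Slc5a2, -1.23, adjusted p = 0.0199, and Cubn, -1.08, adjusted p = 0.0319), while its most abundant marker Slc34a1, at -0.71, did not pass. Between RC/RC:Casp1KO and RC/RC, Slc12a3 (1.44), Wnk4 (0.66), Insrr (1.29), Slc4a9 (1.01), Cubn (1.34) and Lrp2 (1.52) were higher, with adjusted p from 0.00986 to 0.0454. No test of the difference between members and segment markers was made.

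**Figure D4:**
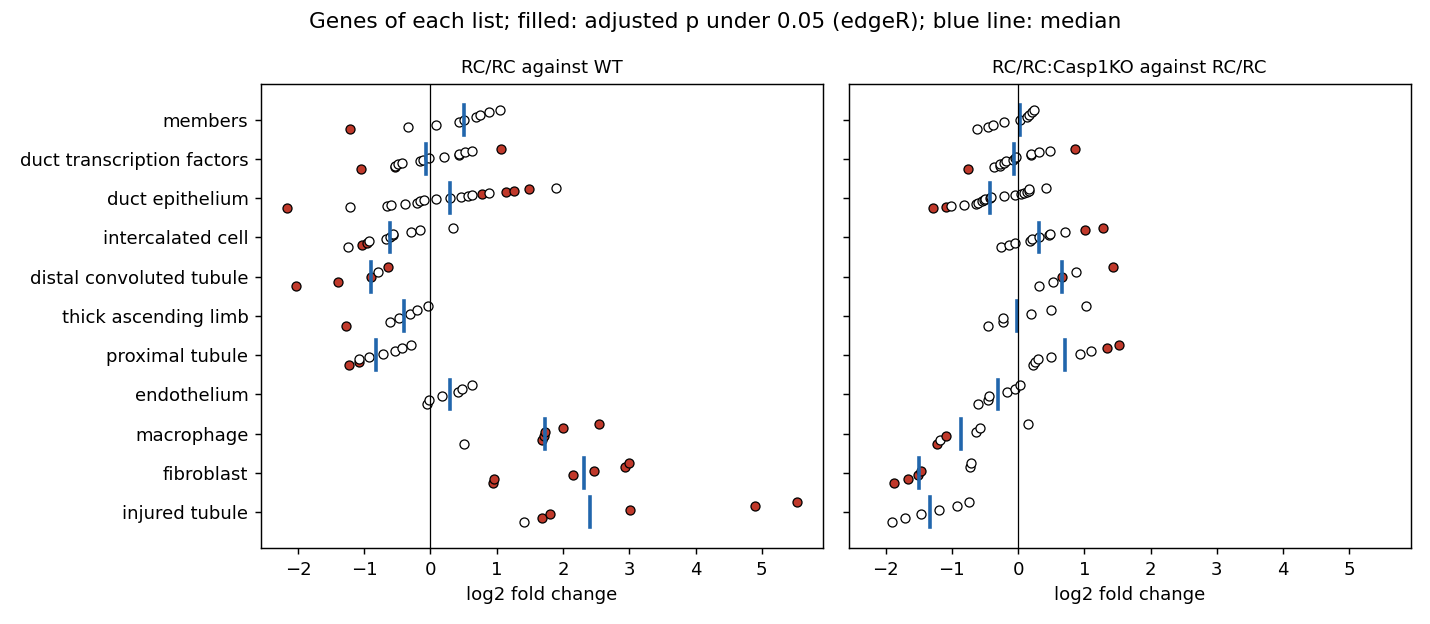
Log2 fold change of each gene tested (points, filled where the adjusted p is under 0.05) in the 9 members and in 10 lists of genes of the duct, other segments and other cell types, with the median of each list (blue line), for RC/RC against WT and for RC/RC:Casp1KO against RC/RC. The members' median is 0.508 in the first comparison, beside 0.291 for duct epithelium, 0.294 for endothelium and -0.0695 for duct transcription factors. Medians of intercalated cell and distal convoluted tubule markers are -0.617 and -0.904, and those of macrophage, fibroblast and injured tubule markers 1.72, 2.31 and 2.41.

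Markers of fibroblasts, macrophages and injured tubules were higher in RC/RC than in WT, while few or none of the endothelial, urothelial and podocyte markers passed the test. All 6 fibroblast markers were higher in RC/RC than in WT, from Col1a1 (3.0, adjusted p = 0.000806), Col3a1 (2.93), Dcn (2.47) and Col1a2 (2.16) to Pdgfrb (0.95) and Pdgfra (0.95), and their summed level was 265 ± 40.7 CPM in WT, 1234 ± 454 in RC/RC and 451 ± 188 in RC/RC:Casp1KO kidneys. Their most abundant gene per length in WT was Dcn, which was also above WT in RC/RC:Casp1KO (1.02, adjusted p = 0.00799). Of 6 macrophage markers 5 were higher, led by Lyz2 (2.54, adjusted p = 0.000358) and followed by Cx3cr1 (1.99), C1qa (1.73), C1qb (1.72) and Cd68 (1.68), with sums of 147 ± 15.5, 422 ± 61.7 and 260 ± 90.6 CPM and C1qa the most abundant in WT. Of 6 markers of injured tubule 5 were higher, led by Lcn2 (5.54, adjusted p = 6.52e-05) and Havcr1 (4.9, adjusted p = 0.000393) and followed by Krt20 (3.01), Sox9 (1.81) and Vcam1 (1.68), with sums of 1245 ± 766, 3457 ± 1661 and 1478 ± 622 CPM, of which the most abundant gene, Spp1, did not itself pass (1.41, adjusted p = 0.092). Lower in RC/RC:Casp1KO than in RC/RC were 4 fibroblast markers and 2 macrophage markers (Col1a1 -1.87, Col3a1 -1.66, Col1a2 -1.52, Dcn -1.46, C1qa -1.22 and C1qb -1.09). Endothelial markers (443 ± 44.5, 516 ± 77.1 and 426 ± 37.5 CPM, Pecam1 the most abundant) and urothelial markers (14.7 ± 15.8, 19.0 ± 11 and 16.7 ± 4.33 CPM, Upk1a the most abundant) had none called by edgeR in any comparison. For urothelium the unadjusted and DESeq2 counts were also 0. For endothelium, 3 markers in RC/RC against WT had an unadjusted p under 0.05 and DESeq2 called 1. These counts were 3 and 2 in RC/RC:Casp1KO against RC/RC, and 1 and 1 in RC/RC:Casp1KO against WT. Of 6 podocyte markers, Nphs1 was lower in RC/RC (-0.62, adjusted p = 0.0372), and the most abundant, Podxl, was at -0.27 (adjusted p = 0.32). Over all 18 lists other than the members, 4 of 185 genes tested passed in RC/RC:Casp1KO against WT, beside 2.03% of all genes. Dcn was higher, and Errfi1, Calb1 and Hspa4l were lower. At an unadjusted p under 0.05 there were 41, beside 21.8% of all genes, and DESeq2 called 21. In RC/RC against WT, 26 of 185 were higher and 17 lower, beside 12.9% of all genes. In RC/RC:Casp1KO against RC/RC, 12 of 184 were higher and 15 lower, beside 11.6%. None of the markers of cell types and segments was at 3 reads or fewer in all mice of a group. The part of these cell types in the members' levels was not tested. The right kidney was quartered before freezing. The urea transporters of the medulla, picked out after their values were seen, were uneven between mice. Slc14a2 was at 34.9 ± 15.2, 35.5 ± 17.5 and 30.5 ± 10.7 CPM in the 3 groups (0.02 in RC/RC against WT, adjusted p = 0.984). Slc14a1 was at 5.57 ± 2.57, 17.1 ± 9.1 and 9.37 ± 4.53 CPM (1.61 in RC/RC against WT, SE 0.507, adjusted p = 0.0674).

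Within groups some members varied together. Over the 12 mice, after removal of group means, the deviations in log2 CPM correlated at r = 0.968 for Scnn1b and Scnn1g, 0.878 for Scnn1a and Scnn1b and 0.849 for Scnn1a and Scnn1g, and Hsd11b2 correlated with these subunits at 0.815 to 0.865. Aqp2 correlated with Fxyd4 at 0.778, and with the ENaC subunits between -0.22 and 0.0373. Sgk1 was most like Scnn1a, at 0.791. The pairs of like mice described above run through these values. In WT and in RC/RC:Casp1KO, 1 pair was above the other pair for each ENaC subunit, Hsd11b2, Sgk1 and Aqp4. In WT, Scnn1a was at 206 and 211 CPM in B6_2 and B6_3 against 109 and 141 in B6_4 and B6_6. In RC/RC:Casp1KO it was at 208 and 178 in Del3_60 and Del3_105 against 93.2 and 117 in Del3_42 and Del3_70. Aqp3 divided in this way in WT alone and Fxyd4 in RC/RC:Casp1KO alone. Aqp2 did not divide along these pairs in either group. As only group means were removed, covariation of the members cannot be told apart from what these pairs share. The values describe 12 mice that share libraries, scaling and sampling of the tissue with every other gene, and no test was made. Among 14068 genes with a mean of at least 1 CPM, Scnn1b was most like Grb14 (0.975), and the proton pump subunit Atp6v1b1 was also among the closest (0.962). Aqp2 was most like Gata5 (0.935), Efr3b (0.92) and Ube2g2 (0.896), and Sgk1 was most like Rsph9 (0.951), Ints3 (0.922) and Gde1 (0.916). The summed level of the 10 members was 1211 ± 294 CPM in WT, 1625 ± 195 in RC/RC and 1388 ± 330.4 in RC/RC:Casp1KO kidneys, with overlap between all groups.

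**Figure D5:**
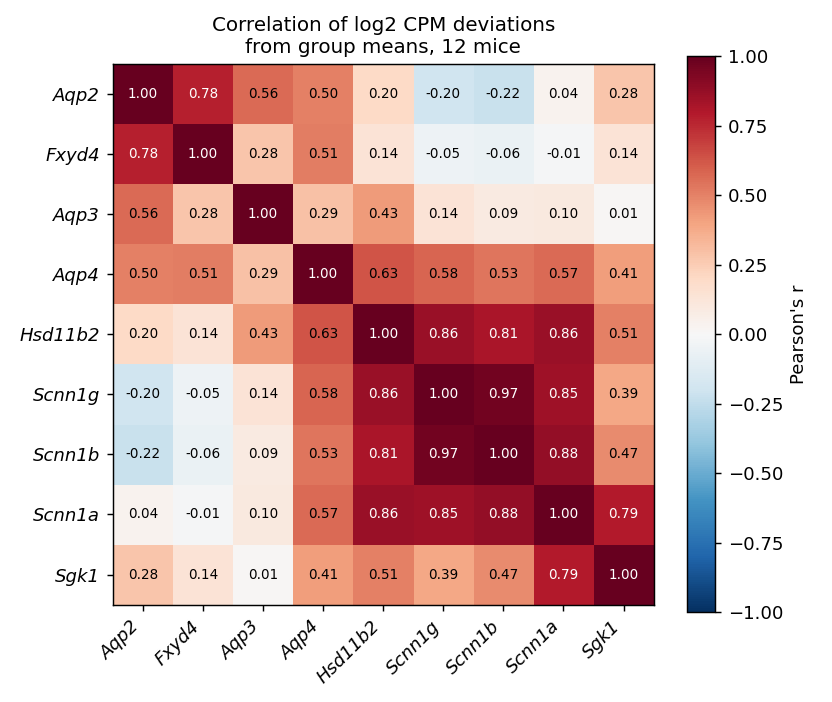
Pearson's r between members over 12 mice, for the deviations of log2 CPM from the mean of each mouse's group (colour and printed value), with genes in the same order on both axes. The ENaC subunits and Hsd11b2 form a block of values from 0.815 to 0.968, and Aqp2 pairs with Fxyd4 at 0.778.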

How the data were processed

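Poly(A) RNA-seq libraries of 12 kidneys were analyzed. The deposited values used were the authors' raw read counts per gene and mouse and the gene lengths in base pairs. Per the labels, the submitters' processing notes name CASAVA 1.8, STAR and mm10, and the counting tool and strand setting are not given in the sources used here. The authors' fold changes, p-values and FPKM columns were not used. Columns name the group of a mouse and not its sex or replicate number, and sexes were not compared. Columns of unknown sample numbered 0.

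Each comparison used its 8 mice in a quasi-likelihood fit over all genes in edgeR 4.0.16 under R 4.3.3, after filterByExpr and TMM scaling, with Benjamini-Hochberg adjusted p under 0.05 as the threshold. Adjusted p-values in the report are from that fit unless another is named. Mice of a group differed by more than sampling noise in 18 of 18 pairs (chi-square over genes with a combined count of at least 20), and whether litters or cages were shared is not given. FPKM was recomputed as count over length and library total. Ratios were tested two-sided over all 70 ways to assign 8 mice to the 2 groups (exact permutation). Alternatives were DESeq2 1.42.0, RLE factors, library totals, 2 count filters, a shared dispersion, limma 3.58.1 on log2(FPKM + 1), and each mouse left out.

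The members and gene lists (20 lists, 198 of 199 names matched by symbol, all but Adgre1) were chosen with earlier results of these data known. Named were Casp1, Pkd1, the members, every list gene that passed, each list's most abundant gene in WT and the 3 genes most like Aqp2, Scnn1b and Sgk1, of which 1 is not reported here. Nr3c2, Nedd4l, Tsc22d3, Per1, Fkbp5, Usp2, Zbtb16, Kcnj1, Kcnj10, Slc14a1, Slc14a2 and the 2 genes overlapping Avpr2 were named outside this rule, after their values were seen. Likeness and ratios to Aqp2 were not computed for Avpr2, which was at 0 reads in 1 mouse.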

Additional observations from a re-analysis of the deposited data

Results flagged for a closer look

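Of 54 groups of 4 mice examined for a sample far from the other 3, 2 held one by Dixon's criterion at the 95% level, and chance flags about 1 group in 20. One WT mouse stood at 2.06 CPM of Casp1, beside 1.29 to 1.41 CPM in the other 3 (gap over range 0.852). One RC/RC mouse had an Aqp4 to Aqp2 FPKM ratio of 0.173, beside 0.031 to 0.0492 in the other 3 (gap over range 0.872).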

How the results depend on the processing

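No paired analysis was possible because the columns carry no replicate number that matches the labels. The number of genes called in RC/RC against WT, 1971, was 3027 with DESeq2 and 1162 to 2440 with 1 mouse left out. For RC/RC:Casp1KO against RC/RC, 1797 became 3172 with DESeq2, 993 with library size alone, 1052 with limma and 438 to 2789 with 1 mouse left out. For RC/RC:Casp1KO against WT, 311 became 1387 with DESeq2, 167 with at least 10 counts in every mouse and 108 to 547 with 1 mouse left out. Members called in RC/RC against WT, 1, became 3 with DESeq2 (beside 3027 of 23658 genes), 2 with library size alone (Aqp3, adjusted p = 0.0499, beside 1897 of 15243), 2 with the shared dispersion (beside 2650 of 15875), 3 with limma (Aqp3, adjusted p = 0.0406, beside 1742 of 15243) and 1 to 2 with 1 mouse left out. The 23658 genes are all those with at least 1 count, and DESeq2 gave some of them, such as Avpr2, no adjusted p. They were 0 to 1 in RC/RC:Casp1KO against RC/RC with 1 mouse left out. Against WT they were 0 in every fit with 1 mouse left out and 1 with limma (Aqp3, adjusted p = 0.0479, beside 327 of 15346 genes). Ratios without overlap numbered 3 to 5, 1 to 2 and 0 to 3 in the 3 comparisons with 1 mouse left out. Members without overlap relative to the transcription factors in RC/RC:Casp1KO against RC/RC, 1, became 3 without Gata3 (beside 10.7% of all genes), 2 without Tfcp2l1 (beside 10.7%) and 2 without Hoxb7 (beside 10.9%). With 1 mouse left out, an alternative chosen after seeing the data, the counts of 2, 1 and 0 in the 3 comparisons became 2 to 4, 1 to 3 and 0 to 2, beside 16.0% to 29.3%, 12.8% to 23.4% and 8.02% to 27.3% of all genes, with fewer mice to overlap. Log2 fold changes that changed sign were those of Scnn1b (-0.0741 and -0.0628, range to 0.1647) and Pkd1 (-0.0782, -0.0583 and -0.0405, range to 0.1611) in RC/RC against WT. In RC/RC:Casp1KO against RC/RC they were Sgk1 (-0.0867 with limma, -0.5415 without Del3_60, range to 0.4813), Aqp3 (-0.0299 and -0.0279, range to 0.1024), Scnn1a (-0.0323, range to 0.3313) and Aqp4 (-0.008, range to 0.6756). Scnn1a in RC/RC:Casp1KO against WT ranged from -0.3523 to 0.0125. Apart from limma for Sgk1, each of these left out 1 mouse, and none was called in either fit. Library size alone moved the median of all genes in RC/RC:Casp1KO against WT from 0.012 to 0.142, and Aqp3 stayed above that shift in each fit run. Causes were not tested. These results rest on 4 mice per group. Avpr2 rests on 0 to 7 reads per mouse.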
